A study of Mus musculus with 12 samples.

Results

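Imprinted genes, which can be read from the chromosome of only 1 parent, were followed in mouse blastocysts whose Ca2+ signal had been altered. The list holds 38 genes, of which 17 are known for maternal and 20 for paternal expression, while Gnas, which encodes the stimulatory G protein alpha subunit, has transcripts of either kind. Members were the probe sets of the array that are paired with exactly 1 of these genes. This gave 98 of 45037 probe sets, from 33 of the 38 genes, among 18193 genes with such a probe set. H19, Kcnk9, Rtl1, Dio3 and Zrsr1 had no probe set of their own. The arrays carried RNA of blastocysts in 3 groups of 4: control embryos, described in the labels as normal, embryos treated by 20 Ca2+ pulses, and embryos cultured in Ca2+ free medium. The series' title places the Ca2+ pattern in the fertilized egg, so the comparisons ask which transcripts differ in the blastocyst after that signal was changed. The sources used here do not give the mouse strain, the form of a pulse, the time in Ca2+ free medium or the number of embryos per array. The arrays measure the summed RNA of both alleles and do not tell the parental copies apart. So "maternal" and "paternal" below name only the allele each gene is listed with. Whether only that allele is read in the blastocyst was not measured.

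An imprinted gene carries DNA methylation that was laid down in the egg or the sperm and that survives the erasure of most methylation in the early embryo. Imprinted genes lie in clusters under control regions, often with a long noncoding RNA such as Kcnq1ot1 or Meg3 that is read from 1 parental copy while protein genes are read from the other. Many act on growth: Igf2 is a fetal growth factor, Igf2r clears it, and Cdkn1c, Phlda2 and Grb10 restrain growth of the embryo or placenta. Embryo culture is a known setting for changes of imprinted genes, and several members become active only after implantation.

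Every array had the same 2% trimmed mean, which was set to 500, and the values below are on this scaled intensity. Over all probe sets the median signal was 165 to 177 in control, 158 to 179 after 20 pulses and 128 to 131 in Ca-free medium. The 3'/5' log2 ratio of the Gapdh control probe sets was -0.88 in Ca-free medium relative to control (exact two-sided permutation p = 0.0286, the smallest 4 against 4 arrays can give), and that of Actb was -0.20 (exact permutation p = 0.429). The ratio for Actb was 0.67 and 0.74 on controls 1 and 2 and 1.43 and 1.40 on controls 3 and 4. The blastocyst markers were present: 11 of 12 trophectoderm, 10 of 10 epiblast and 6 of 10 primitive endoderm genes had a mean signal of at least 200, with Foxa2 under 100. The summed signal of 10 markers of the reproductive tract and cumulus cells was 1806 to 2055 in control, 1570.5 to 2003 after 20 pulses and 1010 to 1234 in Ca-free medium. Of these 10, Amh, Fshr, Has2 and Ptx3 were under 100.

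Of the 33 genes with a probe set, 22 had 1 with a mean signal of at least 200, the level taken as above background. They were 10 maternal genes, 11 paternal genes and Gnas. The low range from 100 to 200 held the maternal genes Zim1, a zinc finger protein, and Cd81, a tetraspanin, and the paternal genes Sgce, a sarcoglycan, and Nnat, a membrane protein of the endoplasmic reticulum. The brightest probe sets of 7 genes stayed under 100 and were not tested. These were the cyclin-dependent kinase inhibitor Cdkn1c (75.1), the trophoblast factor Ascl2 (17.0) and Asb4 (87.9) on the maternal side. On the paternal side were Peg10, a placental gene of retrotransposon origin (37.99), Snrpn, a splicing protein (73.9), the ubiquitin protease Usp29 (86.2) and Nap1l5 (71.6). For Snrpn another 6 probe sets are paired with Snurf as well, and 1 of H19 with Mir675, so they are not members here. In all, 55 of the 98 probe sets, from 26 genes, passed the minimum of 100 over the 12 arrays and were tested.

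The level of 200 did not by itself mark expression. Among 64 probe sets of 33 genes of other tissues, such as photoreceptor, pancreas or muscle genes, 14 also read at least 200, and their 95th percentile was 427. Only 12 imprinted genes had a probe set above that value, a limit set after the values were seen. They were the maternal genes Ube3a, Commd1, Igf2r, H13, Meg3, Ppp1r9a and Tspan32, the paternal genes Plagl1, Impact, Peg3 and Mest, and Gnas. Ndn, Dlk1, Magel2, Igf2, Grb10, Phlda2, Slc22a18, Kcnq1ot1, Inpp5f and Rasgrf1 read above 200 but inside the range of those other-tissue genes.

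In Ca-free medium the bright probe set of Gnas was higher than in control, whereas Ndn, which encodes the growth suppressor necdin, and Dlk1, a transmembrane protein of the Delta family, were lower. The brightest probe sets of these 3 genes were called in the same direction under 4 scalings of the arrays. That is 1 of the 26 tested genes higher and 2 lower (3.85% and 7.69%). Of all tested probe sets, 2.74% were higher and 4.42% lower under all 4 scalings. When the tested probe sets of a gene were averaged, Ndn and Dlk1 were still called lower, but Gnas had a log2 change of -0.068 (adjusted p = 0.579 by limma). With the brightest tested probe set standing for its gene, 2 of the 26 tested genes rose and 9 fell in Ca-free medium, and 15 did not pass. Over all 13599 tested genes, 12.3% rose and 28.8% fell (limma, Benjamini-Hochberg adjusted p under 0.05). The median log2 change was -0.29 over the 26 imprinted genes and -0.13 over all genes. On arrays that did not overlap control, 1 imprinted gene was higher and 8 lower, against 10.8% and 26.3% of all genes. The counts depended on the scaling: with quantile normalization 1 gene rose and 3 fell, with median scaling 9 and 2, and 1 and 14 when arrays were scaled to their hybridization controls. Over all genes, 1222 rose and 1562 fell of 13599 with quantile normalization, and 5746 and 704 of 13797 with median scaling. With the hybridization controls 338 rose and 6650 fell of 13654. The median of all probe sets was -0.18 with the trimmed mean, -0.019 with quantile normalization, 0.19 with median scaling and -0.36 with the hybridization controls. In a blastocyst, fewer cells of a type and less RNA per cell cannot be told apart.

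Gnas read 1519, 1644, 1706 and 1686 on the control arrays, 1465, 1528, 1480.1 and 1589 after 20 pulses and 2354, 2459, 2201 and 2244 in Ca-free medium. All 4 Ca-free arrays lay above the other 8 (2314 ± 116 against 1639 ± 83.7, SD, n = 4 each; log2 change 0.49, SE 0.07, adjusted p = 0.000267). The call held with any of the 8 arrays left out (0.45 to 0.51). Commd1, a maternal gene for a protein of copper handling and NF-kB control, read 1865, 2004, 2332 and 2590.5 on the control arrays, 1769.6, 2149.7, 2165 and 2203 after 20 pulses and 2854, 2479.8, 2692 and 2495 in Ca-free medium. Its Ca-free and control values overlapped (2630.5 ± 178 against 2198 ± 327, SD, n = 4 each; log2 change 0.27, SE 0.10, adjusted p = 0.0477). A further probe set of Commd1 had a log2 change of 0.33 (adjusted p = 0.0455). Both calls of Commd1 ended under quantile normalization and with hybridization control scaling, and that of the brighter probe set ended without control 1 or 2 or any 1 of the 4 Ca-free arrays (0.19 to 0.35). Against controls 3 and 4 only, neither probe set of Commd1 was called.

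**Figure D1:**
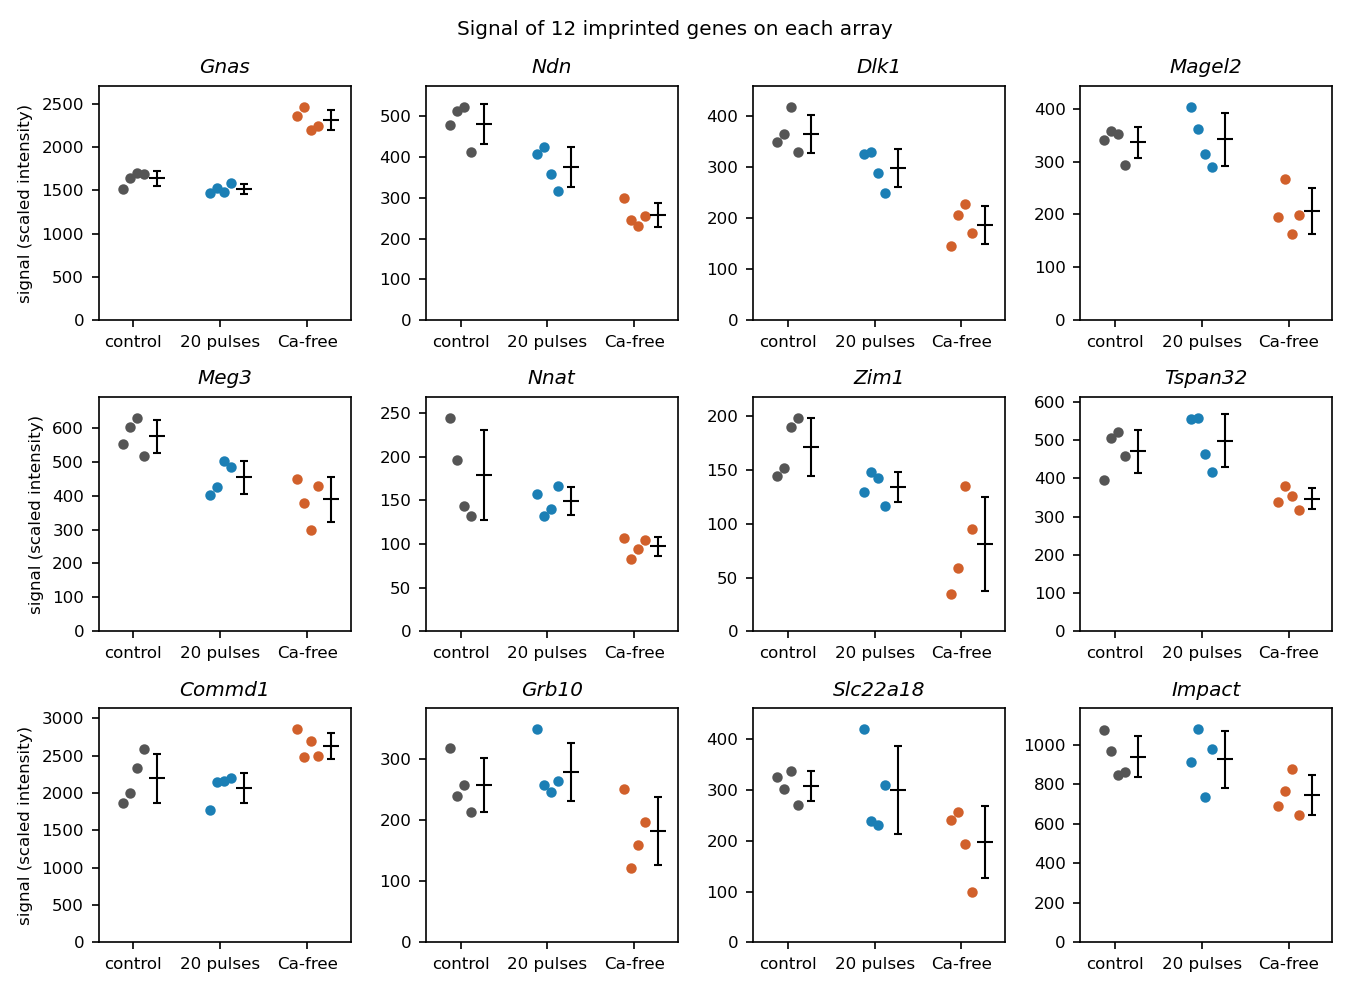
Signal (scaled intensity, linear axis from 0) of the brightest tested probe set of 12 imprinted genes, with a point per array and the mean ± SD of 4 arrays beside the points, for control, 20 pulses and Ca-free medium. Gnas stood at 2201 or more on every Ca-free array and at 1706 or less on every other array, while Ndn and Dlk1 were lower on every Ca-free array than on any control array.

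Among the paternal genes, 5 of 13 tested fell and the other 8 did not pass (28.8% of all genes fell), with a median log2 change of -0.28. That median was 0.015 under quantile normalization, with 2 of the 13 lower, and 0.078 under median scaling, with 4 higher and 2 lower. Over all genes the medians under these scalings were -0.030 and 0.25. The counts over all genes were 1222 higher and 1562 lower of 13599, and 5746 higher and 704 lower of 13797. Ndn read 478, 511, 521 and 413 on the control arrays, 407, 424, 357 and 315 after 20 pulses and 299.5, 244, 230.4 and 256 in Ca-free medium. The Ca-free arrays lay below all others (258 ± 29.9 against 481 ± 48.9, SD, n = 4 each; log2 change -0.82, SE 0.12, adjusted p = 0.000355). Dlk1, from the cluster that also holds Meg3, read 349.6, 364, 417 and 330.2 on the control arrays, 326, 330.1, 289 and 249.1 after 20 pulses and 145, 205, 228 and 171 in Ca-free medium. Its Ca-free values were below all others, and the values after 20 pulses reached up to the lowest control (187 ± 36.7 in Ca-free medium against 365 ± 37.2, SD, n = 4 each; log2 change -0.87, SE 0.14, adjusted p = 0.000543). The calls of Ndn and Dlk1 held with any of the 8 arrays left out (-0.89 to -0.78 and -0.96 to -0.77).

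Magel2, a neighbour of Ndn whose protein belongs to the same MAGE family, read 340.0, 358, 352 and 294 on the control arrays, 402, 361, 314 and 289 after 20 pulses and 196, 267, 164 and 199 in Ca-free medium. The Ca-free arrays did not overlap the others (206 ± 43.1 against 336 ± 28.9, SD, n = 4 each; log2 change -0.64, SE 0.14, adjusted p = 0.00289). Nnat read 244, 196, 144 and 133 on the control arrays, 157, 132, 139.8 and 167 after 20 pulses and 107, 83.4, 93.9 and 105 in Ca-free medium. Here controls 1 and 2 were the highest arrays, and all Ca-free arrays lay below the rest (97.3 ± 11.0 against 179 ± 51.3, SD, n = 4 each; log2 change -0.68, SE 0.17, adjusted p = 0.00704). The call of Nnat ended against controls 3 and 4 only, and quantile normalization or median scaling ended those of Magel2 and Nnat. The Ca-free mean of Nnat was under the minimum of 100, which was set on the mean over all 12 arrays. Impact, an inhibitor of the amino acid sensor GCN2, read 1072, 968, 848 and 864 on the control arrays, 912, 1077, 736 and 980.1 after 20 pulses and 692, 765, 875 and 645 in Ca-free medium. Its groups overlapped (744 ± 100.1 against 938 ± 104, SD, n = 4 each; log2 change -0.32, SE 0.12, adjusted p = 0.0466). The call of Impact ended under quantile normalization, and under median scaling the change was 0.073, above 0. It also ended without control 1 or 2 or without Ca-free array 1, 2 or 4 (-0.40 to -0.26), and against controls 3 and 4 only.

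Among the maternal genes, 1 of 12 tested rose (Commd1) and 4 fell, where 12.3% and 28.8% of all genes did, with a median log2 change of -0.40. With quantile normalization 1 of the 12 was lower and none of the others called in limma (median -0.10), and with median scaling 4 were higher and the other 8 not called (median -0.034). Over all genes these medians were -0.030 and 0.25. Quantile normalization gave 1222 higher and 1562 lower of all 13599 genes, and median scaling 5746 and 704 of 13797. Meg3, a long noncoding RNA, read 553, 601, 628 and 517 on the control arrays, 402, 425, 502 and 485 after 20 pulses and 449, 378, 299.6 and 428 in Ca-free medium in its brightest probe set. Controls were highest, and the values after 20 pulses and in Ca-free medium overlapped each other below them (389 ± 66.5 in Ca-free medium against 575 ± 49.3, SD, n = 4 each; log2 change -0.54, SE 0.12, adjusted p = 0.0039). Tspan32, a tetraspanin of the Kcnq1ot1 cluster, read 396, 507, 521 and 459 on the control arrays, 556, 557, 465 and 416 after 20 pulses and 338, 381, 353 and 317 in Ca-free medium. Every Ca-free array was below every other array (347 ± 26.8 against 471 ± 56.2, SD, n = 4 each; log2 change -0.40, SE 0.12, adjusted p = 0.0137).

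Slc22a18, a transporter of the same cluster, read 325, 301, 336 and 270.2 on the control arrays, 419, 239, 232 and 310.5 after 20 pulses and 241, 257, 194 and 99.5 in Ca-free medium. All Ca-free arrays were below control, with array 4 the lowest at 99.5, and they overlapped the values after 20 pulses (198 ± 70.8 against 308 ± 29.4, SD, n = 4 each; log2 change -0.63, SE 0.22, adjusted p = 0.0361). Its call ended without any 1 of controls 1, 2 and 3 or Ca-free arrays 3 and 4 (-0.76 to -0.38). Zim1 read 144, 152, 189.8 and 198 on the control arrays, 129, 148, 143 and 116 after 20 pulses and 34.5, 59.2, 135 and 94.8 in Ca-free medium. Its Ca-free values were spread widely and all lay below control (80.9 ± 43.8 against 171 ± 26.9, SD, n = 4 each; log2 change -0.92, SE 0.23, adjusted p = 0.00761). Against controls 1 and 2 only, and under either quantile normalization or median scaling, the calls of Tspan32, Slc22a18 and Zim1 ended. That of Slc22a18 also ended against controls 3 and 4 only. The call of Meg3 ended under median scaling. The Ca-free mean of Zim1 was under the minimum of 100, which was set on the mean over all 12 arrays.

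Promoters of 6 members are shown to set windows with and without a motif of imprinted control regions side by side: Ndn, Magel2, Meg3 and Zim1, which fell, and Mest and Plagl1, which were not called. They were picked with the motif and the calls known. Sequences are the 250 bases before a transcript start, from RefSeq (GRCm38.p6), and 31 of the 38 genes matched an entry. Capitals mark TGCCGC, the core motif of the imprint-protecting zinc finger protein ZFP57, on either strand (GCGGCA on the other). The windows are at chr7:62348027-62348276 on the plus strand, chr7:62376729-62376978 on the plus strand, chr12:109540746-109540995 on the plus strand, chr7:6696433-6696682 on the minus strand, chr6:30737800-30738049 on the plus strand and chr10:13090582-13090831 on the plus strand.
Ndn: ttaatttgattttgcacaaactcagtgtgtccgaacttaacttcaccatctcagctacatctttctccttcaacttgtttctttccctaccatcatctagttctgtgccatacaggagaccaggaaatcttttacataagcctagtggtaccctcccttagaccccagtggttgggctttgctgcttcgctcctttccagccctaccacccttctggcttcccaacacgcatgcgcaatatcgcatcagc
Magel2: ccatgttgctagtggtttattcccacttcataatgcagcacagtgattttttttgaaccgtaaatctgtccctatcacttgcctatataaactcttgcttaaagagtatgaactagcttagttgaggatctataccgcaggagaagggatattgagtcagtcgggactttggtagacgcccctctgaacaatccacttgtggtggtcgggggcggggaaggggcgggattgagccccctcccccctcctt
Meg3: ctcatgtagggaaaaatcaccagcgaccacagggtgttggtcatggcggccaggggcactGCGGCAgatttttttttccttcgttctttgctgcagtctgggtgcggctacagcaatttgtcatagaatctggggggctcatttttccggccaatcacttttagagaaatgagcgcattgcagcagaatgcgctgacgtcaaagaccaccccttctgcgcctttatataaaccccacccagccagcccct
Zim1: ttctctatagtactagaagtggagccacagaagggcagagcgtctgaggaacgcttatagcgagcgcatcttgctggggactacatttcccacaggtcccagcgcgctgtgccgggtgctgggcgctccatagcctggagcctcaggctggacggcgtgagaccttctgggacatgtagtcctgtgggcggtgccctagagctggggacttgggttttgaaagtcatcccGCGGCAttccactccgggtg
Mest: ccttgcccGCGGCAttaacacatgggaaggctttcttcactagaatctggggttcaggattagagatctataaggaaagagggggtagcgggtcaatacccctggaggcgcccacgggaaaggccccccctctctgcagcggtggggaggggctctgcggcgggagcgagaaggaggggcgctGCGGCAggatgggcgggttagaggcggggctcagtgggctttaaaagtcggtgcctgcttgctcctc
Plagl1: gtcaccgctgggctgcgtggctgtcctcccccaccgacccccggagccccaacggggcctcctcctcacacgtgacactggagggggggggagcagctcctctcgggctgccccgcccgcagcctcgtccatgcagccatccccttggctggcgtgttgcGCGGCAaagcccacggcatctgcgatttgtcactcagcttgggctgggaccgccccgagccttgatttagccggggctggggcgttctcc
The motif stands once in the windows of Meg3, Zim1 and Plagl1 and at 2 places in that of Mest, and its letters are not in those of Ndn and Magel2. Over the full windows of 300 bases (50 more after the start), 10 of the 31 imprinted genes (32.3%) had the motif in a promoter, against 13.1% of 27025 genes with an entry. The imprinted windows held a median of 16 CpG dinucleotides and all windows 7, and the motif itself holds a CpG. In the 250 bases before a start, 2 of the 10 genes called in Ca-free medium that have a window held the motif (Meg3 and Zim1), and 2 of the 14 tested and not called (Mest and Plagl1). Its letters are thus not in the 250 bases before a start of Dlk1, Nnat, Tspan32, Slc22a18, Commd1 and Gnas either. Motifs in the 50 bases after a start are not given here by gene.

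Most of the brightest members did not pass in Ca-free medium. The ubiquitin ligase Ube3a had 3023 ± 615 in Ca-free medium against 2565 ± 94.2 (the latter in control; ± SD, n = 4 per group; log2 change 0.21, adjusted p = 0.159). The receptor Igf2r read 1967 ± 144 against 1685 ± 451, and the zinc finger factor Plagl1 1008 ± 144 against 858 ± 154 (log2 changes 0.25 and 0.23). For H13, the signal peptide peptidase, the values were 950.0 ± 56.0 and 855 ± 183, and for the zinc finger factor Peg3 785 ± 50.4 and 686 ± 48.7 (log2 changes 0.17 and 0.19). With its probe sets averaged, H13 was called lower (log2 change -0.37, adjusted p = 0.0464). None of these 5 passed in limma, with adjusted p from 0.131 to 0.319, but all 5 were called higher under median scaling. That scaling called 5746 of all 13797 genes higher, with a median log2 change of 0.25 over all genes. Igf2r and Plagl1 were also called higher against controls 3 and 4 only, and H13 against controls 1 and 2 only. The hydrolase family gene Mest (0.13) and the phosphoinositide phosphatase Inpp5f (0.10) were alike in this, with no call except as higher under median scaling.

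The growth factor Igf2 varied widely between arrays of a group. It read 392, 276, 328 and 173 on the control arrays, 92.2, 91.4, 314 and 299.8 after 20 pulses and 127, 202, 293 and 307 in Ca-free medium, so that all 3 groups overlapped. Its log2 change in Ca-free medium was -0.31 with an SE of 0.35 (adjusted p = 0.502). Phlda2, which limits placental growth, was at 188 ± 40.0 in Ca-free medium against 259.7 ± 56.6 (log2 change -0.41, SE 0.18, adjusted p = 0.0875). The adaptor Grb10 was at 182 ± 55.5 against 257 ± 44.5 (log2 change -0.46, SE 0.18, adjusted p = 0.0527), and the actin-binding protein Ppp1r9a at 416 ± 69.2 against 502 ± 23.3 (log2 change -0.27, SE 0.11, adjusted p = 0.0573). Cd81 (-0.42), the exchange factor Rasgrf1 (-0.27), Kcnq1ot1 (-0.28) and Sgce (-0.16) did not pass either, with adjusted p from 0.0649 to 0.466.

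**Figure D2:**
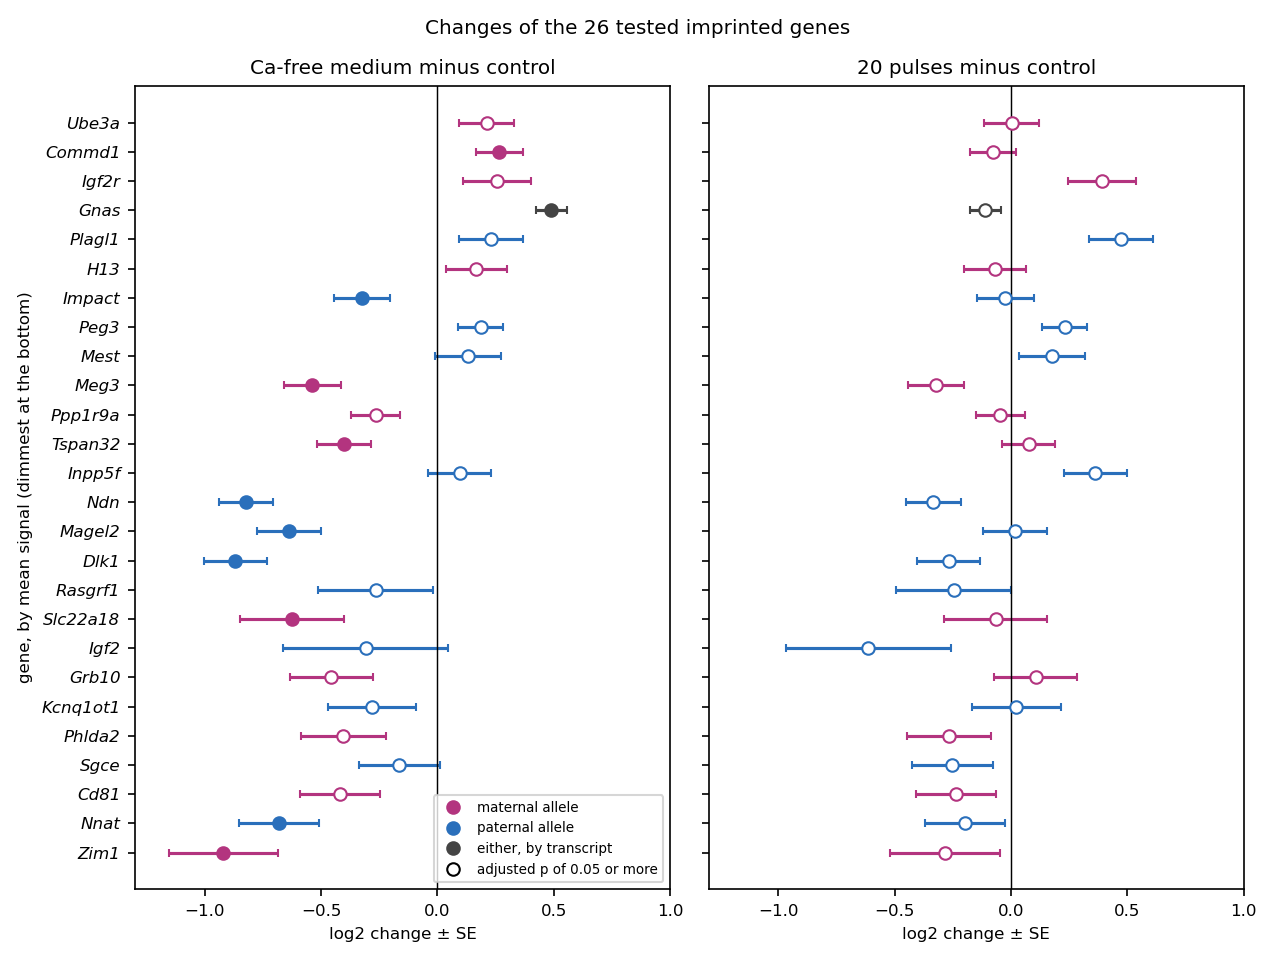
Log2 change ± SE (limma) of the brightest tested probe set of the 26 imprinted genes with a tested probe set, in Ca-free medium (left) and after 20 pulses (right), both against control, with genes in order of mean signal and filled points for adjusted p under 0.05. In Ca-free medium filled points to the left of 0 lie mostly in the lower part of the plot, and after 20 pulses 0 points are filled.

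By cluster, the paternal Ndn and Magel2 of the Snrpn to Ube3a region fell, and the maternal Ube3a did not pass (log2 change 0.21, adjusted p = 0.159). In the Dlk1 to Meg3 region the paternal Dlk1 and the maternal Meg3 both fell. In the Kcnq1ot1 region Tspan32 and Slc22a18 fell, while Phlda2, Cd81 and Kcnq1ot1 did not pass and Cdkn1c and Ascl2 were not tested. In the Peg3 region Zim1 fell and Peg3 had a change of 0.19, with Usp29 not tested. In the Peg10 to Sgce region the brightest probe sets of Sgce and Ppp1r9a did not pass, and Peg10 and Asb4 were not tested.

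Probe sets of the same gene did not always move together. Counted by probe set, 3 of 55 were higher and 20 lower in Ca-free medium, against 10.6% and 29.7% of all 27808 tested probe sets. Under all 4 scalings 1 was higher and 5 were lower, against 2.74% and 4.42% of all tested. Of the 7 tested probe sets of Meg3, 4 fell, with log2 changes from -0.80 to -0.54, and the other 3 had changes of -0.31, -0.30 and -0.19. A probe set of Meg3 that had 268 ± 31.8 in Ca-free medium against 488 ± 49.1 (the latter in control; ± SD, n = 4 per group; log2 change -0.80, SE 0.12, adjusted p = 0.00043) was called lower under all 4 scalings, as was another at -0.66. Of the 5 tested probe sets of Ndn, 4 fell, at -0.82, -0.52, -0.51 and -0.50, and the other was at -0.23. These genes thus had several called probe sets in the same direction. A dim untested probe set of Ndn ran the other way (110 ± 34.6 in Ca-free medium against 32.4 ± 5.5 in control), and its other untested ones were lower.

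Gnas gave opposite calls, and its direction depends on which probe set is read. Its second probe set was dim and had 84.1 ± 23.3 in Ca-free medium against 145 ± 17.4 (the latter in control; ± SD, n = 4 per group; log2 change -0.63, SE 0.19, adjusted p = 0.0161), and 3 further probe sets were under 100. The sources used here do not say which Gnas transcript each probe set reads. A dimmer probe set was called lower beside an uncalled bright one in Plagl1 (-0.68 and 0.23), H13 (-1.19 and 0.17), Ppp1r9a (-1.002 and -0.27) and Rasgrf1 (-0.59 and -0.27). That of Ppp1r9a, at 108 ± 55.9 against 234 ± 23.6 (SD, n = 4 each; adjusted p = 0.00389), was called under all 4 scalings. The second probe set of Dlk1 had a change of -0.38 and did not pass (adjusted p = 0.0669). Quantile normalization ended the lower calls of the dimmer probe sets of Gnas, Plagl1, H13 and Rasgrf1. By their names, the brightest probe sets of Gnas and Dlk1 (_s_at) and of Ndn and Plagl1 (_x_at) are of kinds that can share probes with other transcripts. The 2 probe sets of Igf2r were at 0.25 and -0.26, neither called.

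**Figure D3:**
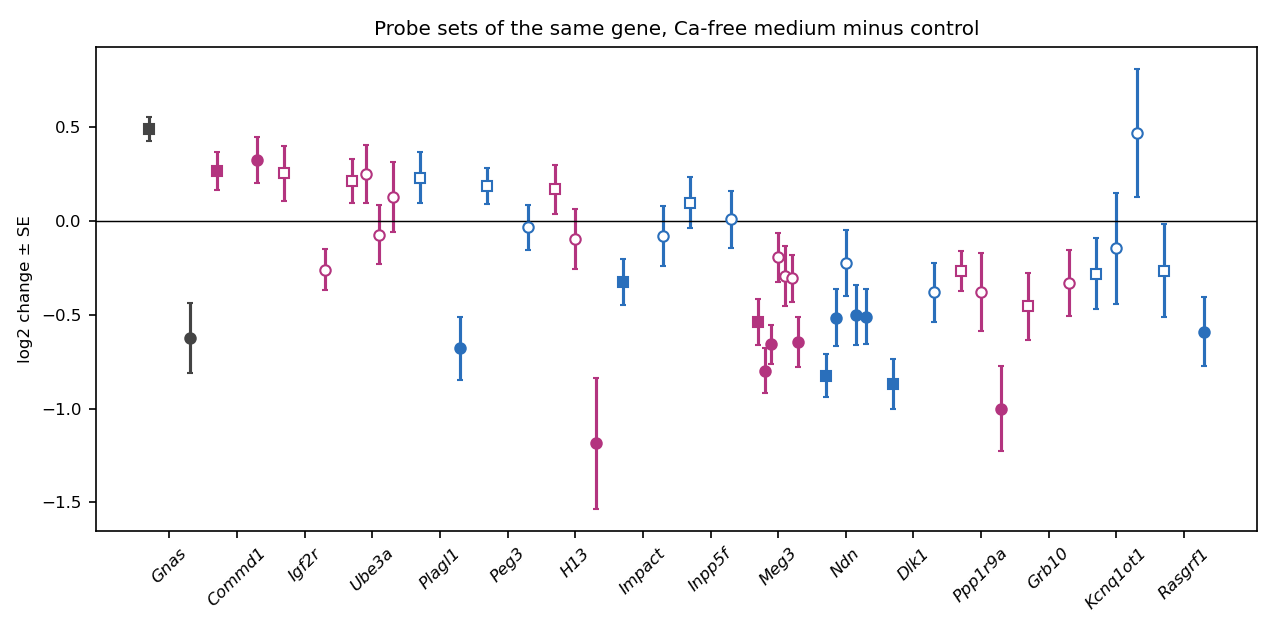
Log2 change ± SE in Ca-free medium against control for every tested probe set of the 16 imprinted genes that have more than 1, ordered within a gene from brightest (square) to dimmest, with filled symbols for adjusted p under 0.05. Gnas has a filled symbol on each side of 0, and Meg3 and Ndn have 4 filled symbols each, all below 0.

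The change followed the signal, among imprinted genes as over the whole array. Of all tested probe sets with a mean signal of 100 to 200, 34.7% fell in Ca-free medium and 2.13% rose, with a median log2 change of -0.38. Between 200 and 500 the shares were 42.9% and 4.14% (median -0.30), and from 500 upward 13.8% and 23.3% (median 0.062). The imprinted probe sets gave 9 of 17 lower in the first range, 10 of 27 lower in the second, and 1 lower and 3 higher of 11 in the third, with medians of -0.50, -0.31 and 0.23. Among 29 tested probe sets of the genes of other tissues, 14 fell and 2 rose (median -0.44), and all 6 tested reproductive tract and cumulus markers fell, with a median of -0.73. Whether these markers, the signal or the 3' to 5' ratios have a part in the lower values of the imprinted genes was not tested.

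**Figure D4:**
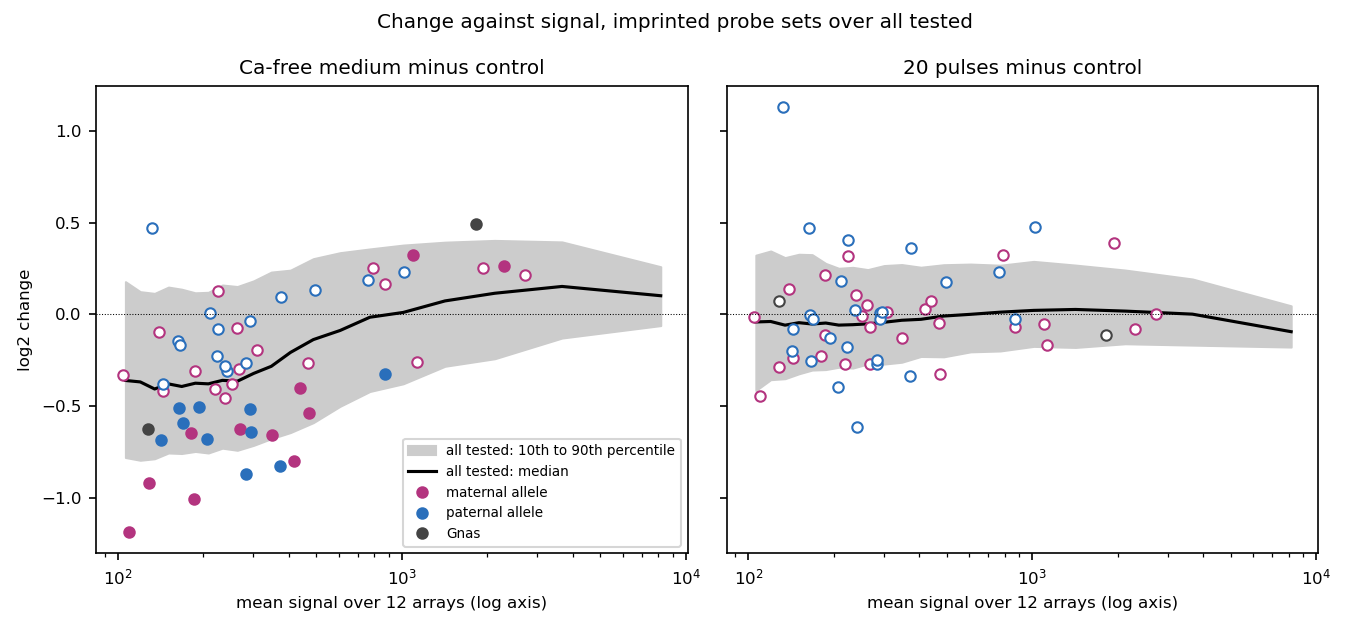
Log2 change against mean signal over the 12 arrays (log axis) for the 55 tested imprinted probe sets (points, filled for adjusted p under 0.05), over the median and the 10th to 90th percentile of all 27808 tested probe sets in 20 bins of signal. In Ca-free medium (left) the median of all probe sets runs from below 0 at low signal to above 0 at high signal, and most filled imprinted points lie under that median. Filled points are the called ones, most of them called lower, so their place under the median follows in part from that choice.

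After 20 pulses, 0 of the 26 imprinted genes passed the test by limma, and 6 had an unadjusted p under 0.05, as had 2081 of all 13599 tested genes. Of all tested genes, 0.75% were higher and 0.331% lower, and of the 55 probe sets 0 passed (9 with an unadjusted p under 0.05), against 1.1% higher and 0.374% lower of all tested. Of the 22991 tested probe sets paired with 1 gene, 3642 had an unadjusted p under 0.05. The median log2 change was -0.068 over the imprinted genes and -0.036 over all genes. The largest change by a brightest probe set was that of Igf2 (log2 change -0.61, SE 0.35, adjusted p = 0.423). Plagl1 read 993, 989, 728 and 721 on the control arrays, 1086, 1141, 1487 and 1087 after 20 pulses and 849, 1127, 1134 and 924 in Ca-free medium. All 4 arrays after 20 pulses were above every control array, and controls 1 and 2 were above controls 3 and 4 (1200.4 ± 193 against 858 ± 154, SD, n = 4 each; log2 change 0.47, SE 0.14, adjusted p = 0.1). The dimmer tested probe set of Plagl1 went the other way, with all 4 arrays after 20 pulses below every control array. It was at 195 ± 24.6 against 266 ± 30.8 (log2 change -0.39, adjusted p = 0.27 by limma). With its probe sets averaged, Plagl1 had a log2 change of 0.041 (adjusted p = 0.901).

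The brightest probe set of Igf2r followed the same pairs of control arrays. It read 2083, 2067, 1259.5 and 1332 on the control arrays, 2489.7, 2192, 2052 and 1938 after 20 pulses and 1805, 2078, 2097 and 1887 in Ca-free medium, so controls 3 and 4 were lower than all other arrays (log2 change 0.39, SE 0.15, adjusted p = 0.2). The second probe set of Igf2r had the reverse order, with 1073 and 1207.5 on controls 1 and 2 and 1392 and 1317 on controls 3 and 4. Its log2 change after 20 pulses was -0.17 (adjusted p = 0.49 by limma), and that of the averaged probe sets 0.11 (adjusted p = 0.571). Against controls 3 and 4 only, the brightest probe sets of Plagl1 and Igf2r were called higher after 20 pulses, and against controls 1 and 2 only neither was. With hybridization control scaling Igf2r, Inpp5f, Peg3 and Plagl1 were called higher, where 950 of all 13654 genes were. Inpp5f was at 434 ± 31.8 after 20 pulses and 336 ± 76.1 in control (log2 change 0.36), and Peg3 at 814 ± 97.2 and 686 ± 48.7 (0.23). Ndn (-0.33), Meg3 (-0.32) and Dlk1 (-0.27), which fell in Ca-free medium, did not pass after 20 pulses (adjusted p = 0.17, 0.202 and 0.351), and Gnas was at -0.11.

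The noncoding RNA Kcnq1ot1, which silences its cluster on the paternal copy, had a dim probe set that stood apart after 20 pulses. It read 55.6, 54.7, 65.9 and 115 on the control arrays, 185, 232, 154 and 203 after 20 pulses and 192, 70.9, 36.8 and 221 in Ca-free medium. The arrays after 20 pulses lay above all control arrays, and the Ca-free arrays were divided (log2 change 1.13, SE 0.34, adjusted p = 0.115). A second dim probe set of Kcnq1ot1 also lay above all controls after 20 pulses (207 ± 32.1 against 140.0 ± 11.6, SD, n = 4 each; log2 change 0.47, SE 0.30, adjusted p = 0.473), while the brightest was at 0.023. Counting the brightest probe set of each gene, 2 imprinted genes (Plagl1 and Mest) were higher on all arrays after 20 pulses than on any control array and 2 (Dlk1 and Meg3) lower, where 5.1% and 5.6% of all genes were.

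Compared directly, blastocysts from Ca-free medium differed from those given 20 pulses in 8 imprinted genes, counted by the brightest probe set. Gnas and Commd1 were higher and Dlk1, Grb10, Magel2, Ndn, Nnat and Tspan32 lower (2 and 6 of 26), while 11.2% and 21% of all genes were called. By probe set 3 were higher and 16 lower of 55, against 9.22% and 23.4% of all tested. Counting arrays that did not overlap, 2 genes were higher and 5 lower, against 11.3% and 19.5% of all genes. The median was -0.22 over the imprinted genes and -0.12 over all. This comparison shares the Ca-free arrays with the comparison above. Gnas had log2 change 0.60, SE 0.07, adjusted p = 0.000368, Magel2 log2 change -0.65, SE 0.14, adjusted p = 0.00401, and Dlk1 log2 change -0.60, SE 0.14, adjusted p = 0.00564. Commd1, with 4 Ca-free arrays above all 4 arrays after 20 pulses, had log2 change 0.34, SE 0.10, adjusted p = 0.0191. Grb10 read 318, 239, 256 and 213 on the control arrays, 348, 257, 245 and 263 after 20 pulses and 251, 121, 158 and 197 in Ca-free medium. A Ca-free array at 251 overlapped the values after 20 pulses (log2 change -0.56, SE 0.18, adjusted p = 0.0267), and its call ended without pulses array 1 or without Ca-free array 2 or 3. The call of Nnat (log2 change -0.49) ended with any 1 of the 8 arrays left out. Of these 8 genes only Gnas kept its call under quantile normalization, and with its probe sets averaged it had a log2 change of -0.049 (adjusted p = 0.71). The brightest probe set of Meg3 was not called (log2 change -0.22, adjusted p = 0.181 by limma). Another probe set of Meg3 was lower under all 4 scalings (-0.83, adjusted p = 0.000738), as were 2.29% of all tested probe sets. With its probe sets averaged, Meg3 was called lower (-0.39, adjusted p = 0.00508). Under median scaling Commd1, Gnas, H13, Peg3 and Ube3a were higher and 0 were lower in limma, although 11 of the 26 had an unadjusted p under 0.05 with the trimmed mean. So had 6007 of all 13599 genes. Of all 13797 genes, 5133 were higher and 325 lower under median scaling.

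Genes that set or guard imprints were compared from a separate list of 35. Of 30 tested, the brightest probe sets of 6 rose in Ca-free medium and 0 fell by limma (9 had an unadjusted p under 0.05), with a median of 0.048. Over all genes 12.3% rose and 28.8% fell, with a median of -0.13, and 6940 of 13599 had an unadjusted p under 0.05. The list was not matched for signal: of all tested probe sets from 500 upward, 23.3% rose and 13.8% fell (median 0.062). Counts of this list under other scalings are not given here. Among all 70 tested probe sets of these regulators 15 rose and 3 fell, the latter from Atrx and Hells. Ctcf, the insulator protein that binds imprinted control regions, was at 3771 ± 169.8 against 2430 ± 186 (the latter in control; ± SD, n = 4 per group; log2 change 0.63, adjusted p = 1.68e-04). The Polycomb protein Suz12 (log2 change 0.46) and the DNA methyltransferase Dnmt3a (0.81) had the next smallest p-values. The others that rose were Atrx, Dnmt3b and Smchd1. After 20 pulses the chromatin protein Atrx (0.40) and the dioxygenase Tet2 (0.62) rose, and none of the other 28 passed in limma (over all genes 0.75% rose and 0.331% fell). Of the 30, 12 had an unadjusted p under 0.05, as had 2081 of all 13599 genes. Against 20 pulses, 6 of these regulators were higher in Ca-free medium and 4 lower (11.2% and 21% of all genes), with Ctcf (0.51), Suz12 (0.38) and the egg factor Dppa3 (0.26) leading.

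A further list held 49 other imprinted or parent-specific genes, of which 32 were tested. In Ca-free medium 5 rose and 13 fell, with a median of -0.30, where 12.3% and 28.8% of all genes did, with a median of -0.13. After 20 pulses 0 passed in limma (3 had an unadjusted p under 0.05, as had 2081 of all 13599 genes). Between the treatments 4 were higher and 8 lower, against 11.2% and 21% of all genes. The X inactivation RNA Xist fell (2685 ± 242 against 4197 ± 419 in control, SD, n = 4 each; log2 change -0.64), and Sfmbt2 (0.57) and Jade1 (0.27) rose. Dhcr7, an enzyme of sterol synthesis, was 0.90 higher on the log2 scale in Ca-free medium than after 20 pulses.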

How the data were processed

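The deposited table holds linear intensity of 12 arrays, made by the authors with MAS5 per the submitters' processing notes; no source used here gives version, annotation or genome build. Per the labels, PicoPure RNA was turned into biotin-labelled cRNA. Each array was rescaled to a 2% trimmed mean of 500, and 32 was added before log2. Probe sets with a mean of at least 100 were tested (27808) in limma 3.58.1 (R 4.3.3; lmFit, eBayes with intensity trend, all 12 arrays), with p adjusted over all of them. Fold changes of dim probe sets are understated on this scale. A platform table paired, besides array controls, 34945 probe sets with 1 gene and 932 with several, and 9160 had none; of those with 1, 34741 matched RefSeq by gene ID. The brightest tested probe set stands for its gene. Values on every array are given for up to 12 members with a called probe set, by smallest adjusted p; other members above background by mean and SD; Igf2, Igf2r, Plagl1 and a dim Kcnq1ot1 probe set were added on every array after their values were seen; of the other lists, the 3 called genes with the smallest p. Members, lists and tests were chosen with earlier results of these data known. Nothing says that replicates were separate embryo collections, so p-values reflect only the array-to-array spread, which may be technical; 4 arrays a group limit the precision. The procedure was tested on simulated data. Alternatives were other scalings, added values (1, 100), filters (none, 300), models, arrays left out, pairs of controls, a replicate block and gene means.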

Additional observations from a re-analysis of the deposited data

Results flagged for a closer look

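Over the brightest probe sets of the 26 tested imprinted genes, 78 groups of 4 arrays were looked at, and in 5 of them an array stood far from the other 3; chance alone gives such a gap in about 5% of groups. Rasgrf1 read 123 on pulses array 4 and 317 to 336 on the other 3. Plagl1 read 1487 on pulses array 3, where the others were at 1086 to 1141. Commd1 read 1770 on pulses array 1 against 2150 to 2203 on the rest. Inpp5f read 386.5 on pulses array 4 and 444 to 456 on the others. Cd81 read 143 on control array 2 against 178 to 181.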

How the results depend on the processing

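The 26 genes with a tested probe set gave 11 calls in Ca-free medium against control, 0 after 20 pulses in limma and 8 between the treatments. In Ca-free medium against control the calls numbered 4 under quantile normalization (1 higher, 3 lower), where 1222 and 1562 of all 13599 genes were called. They numbered 5 of 14 tested genes with a minimum signal of 300 (1 and 4). On the deposited values without rescaling they were also 5 of 14 (1 and 4, added after seeing the data). There the minimum of 100 acted on values not yet multiplied by 3.33. Median scaling gave 9 higher and 2 lower (5746 and 704 of all 13797 genes). Hybridization control scaling gave 1 and 14 (338 and 6650 of all 13654 genes). Only Gnas was higher with no filter, without the intensity trend or in a model of only the 8 arrays. When probe sets were averaged per gene, only Commd1 was higher and 11 genes were lower, against 1289 and 4264 of all genes. Gnas was then at -0.068, and H13 was called lower (-0.37). Ppp1r9a (-0.55) and Grb10 (-0.39) gained a call as lower, and Impact lost its call (values by gene added after seeing the data). After 20 pulses 2 were higher against controls 3 and 4 only and 4 with hybridization control scaling (950 of all 13654 genes). Between the treatments quantile normalization left 1 call (1 higher, 0 lower in limma), where 728 of all 13599 genes were higher and 704 lower. Median scaling gave 5 (5 and 0), against 5133 and 325 of 13797 genes. A minimum of 300 left 4 of 14 tested genes (2 of them lower). Hybridization control scaling gave 20 (1 and 19), against 36 and 9627 of 13654 genes. With gene means 1 gene (Commd1) was higher and 9 were lower, against 1074 and 3139 of all genes, with Gnas at -0.049. With each array left out, calls in Ca-free medium against control ranged from 8 to 12 (1 to 2 higher, 7 to 10 lower), and between the treatments from 5, without pulses array 1, to 8 (1 to 2 higher, 4 to 6 lower).

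Of the called changes, 2 turned under a scaling: Impact in Ca-free medium against control under median scaling (0.073) and Commd1 between the treatments with hybridization control scaling (-0.022). Peg3 between the treatments, not called at -0.044, was called higher under median scaling (0.32). With the 95th percentile of genes of other tissues as the limit, 12 in place of 22 genes were above background. The causes were not tested, except that a higher minimum tests fewer genes and that averaging Gnas joins 2 probe sets of opposite change. Arrays of the same number in different groups did not deviate together (mean r 0.0156, lowest -0.058; 7 of the 12 arrays correlated best with their own number). The replicate block gave 2 higher and 9 lower genes in Ca-free medium against control, 0 after 20 pulses and 2 and 7 between the treatments; it ended the call of Impact and added Grb10, and added Zim1 between the treatments. Calls near background rest on signals that genes of other tissues also reach. The minimum of 100 was set on the mean over all 12 arrays. The Ca-free means of Zim1 (80.9), Nnat (97.3) and the dimmer called probe sets of Gnas (84.1) and H13 (51.0) were under it. With no filter, 1 of 33 genes was higher and 7 were lower in Ca-free medium against control, Zim1 and Nnat among the latter.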

Other observations

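Some imprinted genes were divided among the Ca-free arrays, a pattern picked after the values were seen. Kcnq1ot1 read 192 and 221 on Ca-free arrays 1 and 4 and 70.9 and 36.8 on arrays 2 and 3 in a dim probe set, and the same arrays were at 230.1 and 212, and 48.7 and 80.8 in another. Mest read 664 and 601 on arrays 1 and 4 and 382 and 410.2 on arrays 2 and 3. Ube3a ran the other way, at 2449.7 and 2533 against 3552 and 3559. Among the controls, H13 read 703 and 698 on arrays 1 and 2 and 962 and 1057 on arrays 3 and 4. The labels give no batch for either split. The 3'/5' log2 ratio of Gapdh was 2.34 and 2.24 on Ca-free arrays 1 and 4 and 1.63 and 1.53 on arrays 2 and 3. That of Actb was 0.83, 0.91, 0.76 and 0.91 on Ca-free arrays 1 to 4. On controls 1 and 2 it was 0.67 and 0.74, and on controls 3 and 4 it was 1.43 and 1.40. Whether these ratios have a part in either split was not tested.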
